A study of Homo sapiens with 36 samples.

Results

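The 9 genes described here, CXCL8, CXCL1, CXCL2, CXCL3, CXCL16, CCL2, CCL3, CCL4 and CCL5, encode chemokines of the CXC and CC classes, and were followed among 35490 genes. The set was chosen by its response in these data: CXCL8 and CXCL1 were higher with A9 than with DMSO in MONO-MAC-6, and their relatives were added by name. For that reason the A9 against DMSO values of these 9 genes in MONO-MAC-6 are given as a description, without p-values. The values in MOLM-13 did not choose the set.

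RNA of MOLM-13 and MONO-MAC-6, established human acute myeloid leukaemia (AML) cell lines that the labels give as wild type, was sequenced after 72 h. The treated groups received A9, a PROTAC, at 0.125 µM in MOLM-13 and at 0.25 µM in MONO-MAC-6, and the control groups received the solvent DMSO. A PROTAC is a small molecule that brings a protein to a ubiquitin ligase, so that the protein is degraded. The design text gives IKK2 and NR4A1 as the proteins A9 degrades, and the series title gives IKK1 and NR4A1. The labels name no other agent or allele for these groups, and each line models AML by 1 line of malignant cells cultured alone in medium. Each of the 4 groups had 9 libraries, which the labels number in a pair (first, second). Libraries with the same first number were averaged, which gave 3 samples per group. Nothing in the labels says that the samples came from separate cultures, so the p-values measure only the spread between these samples, which may be technical. Values are TPM, transcript abundances on a fixed total per library, corrected for transcript length. TPM hold no read counts, so the depth behind a value is unknown.

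Chemokines are small secreted proteins that guide leukocytes along a gradient by binding G protein-coupled receptors. CXCL8 (interleukin-8), CXCL1, CXCL2 and CXCL3 carry an ELR motif, bind CXCR2 and attract neutrophils. CXCL16 is made as a membrane protein that is shed and binds CXCR6. CCL2 attracts monocytes through CCR2, and CCL3, CCL4 and CCL5 attract monocytes and T cells. In monocytes and macrophages many of these genes are induced through the IKK kinases, which free NF-kB to enter the nucleus, together with AP-1 and C/EBP factors, and their AU-rich mRNAs are short-lived.

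The genes lie on chromosomes 4 and 17 (GENCODE 29, GRCh38), with CXCL16 far from the other members on chromosome 17. On chromosome 4 are CXCL8 (ENSG00000169429, 73740506 to 73743716, plus strand), CXCL1 (ENSG00000163739, 73869393 to 73871242, plus strand), CXCL3 (ENSG00000163734, 74036589 to 74038807, minus strand) and CXCL2 (ENSG00000081041, 74097035 to 74099293, minus strand). On chromosome 17 are CXCL16 (ENSG00000161921, 4733526 to 4739922, minus strand), CCL2 (ENSG00000108691, 34255218 to 34257203, plus strand), CCL5 (ENSG00000271503, 35871491 to 35880793, minus strand), CCL3 (ENSG00000277632, 36088256 to 36090169, minus strand) and CCL4 (ENSG00000275302, 36103590 to 36105621, plus strand). The values given for each gene are sums over all its annotated transcripts, exons and untranslated parts included.

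The promoters of the chromosome 4 genes are shown because they belong to CXCL8, CXCL1 and their closest relatives, and because NF-kB, the factor downstream of the IKK kinases, binds DNA of the kind they share. The letters GGAATTTCC, a kappaB site, were searched on both strands in RefSeq promoter windows (GRCh38.p14) of 250 bases before and 50 bases after a gene's start. Windows were found for 5 of the 9 members, which are CXCL8, CXCL1, CXCL2, CXCL3 and CCL3. Each of the 4 chromosome 4 genes held the letters once, on the transcribed strand, and none of the CCL3 windows did. Of all 35116 windows in the table, 0.461% held them. Each stretch of 30 bases around the letters is given 5′ to 3′ on the gene's own strand, with GGAATTTCC in capitals.
CXCL8: tgcaaatcgtGGAATTTCCtctgacataat
CXCL1: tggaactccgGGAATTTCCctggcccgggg
CXCL2: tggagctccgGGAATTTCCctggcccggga
CXCL3: tggagctccgGGAATTTCCctggcccggcc
These stretches lie at chr4:73740468-73740497 (plus strand), chr4:73869305-73869334 (plus strand), chr4:74099253-74099282 (minus strand) and chr4:74038748-74038777 (minus strand). The site began 91 bases before the RefSeq start of CXCL8, 78 before those of CXCL1 and CXCL3, and 77 before that of CXCL2. The GENCODE spans of CXCL2 and CXCL3 given above include these stretches. In those genes the site thus lies before the start by RefSeq only. CXCL1 and CXCL2 were identical at 28 of the 30 bases, as were CXCL2 and CXCL3, whereas CXCL8 matched CXCL1 at 17. A wider kappaB consensus, searched by name, overlapped the site in CXCL1, CXCL2 and CXCL3 but not in CXCL8, and was in 11.3% of all windows. The CXCL8 window alone among the members' windows held TGANTCA, an AP-1 motif found in 7.71% of all windows. It is shown with the kappaB site of the same promoter, both in capitals, over 61 bases at chr4:73740429-73740489 (plus strand).
CXCL8 upstream stretch: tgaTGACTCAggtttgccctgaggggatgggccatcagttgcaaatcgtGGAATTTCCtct
The letters TATAAA were in the windows of CXCL8 and CCL3, and in 11.5% of all windows. A match describes the letters only, since binding was not measured.

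The whole series gave this frame. In MONO-MAC-6, DMSO sample 1 stood apart: the median gene lay 0.41 away on the log2 scale from the mean of the other DMSO samples, against 0.065 to 0.24 for the other samples of the line. Left out, it raised the count of genes past the threshold from 433 to 3205, so member values and counts of called genes in that line are also given without it. Of 10 myeloid markers, 9 exceeded 1 TPM in both lines, and the T cell markers CD3E and CD2, the B cell marker MS4A1 and the erythroid marker HBB were at 0. The summed myeloid markers, led by LYZ (lysozyme), ran from 4451 to 5314 TPM with DMSO and from 9218 to 9453 TPM with A9 in MONO-MAC-6, and from 1052 to 1071 and from 1267 to 1377 TPM in MOLM-13. In MONO-MAC-6, 1 of 4 endothelial markers exceeded 1 TPM, PECAM1, which monocytes also express, and the list summed to 40.2 to 124 TPM with DMSO and 194 to 217 TPM with A9; 2 of 4 epithelial markers did, with sums of 13.9 to 16.3 and 7.995 to 9.29 TPM and KRT19 at 0. The part of these marker differences in the chemokine values was not tested. These are bulk samples, in which more cells that express a gene and more RNA per cell cannot be told apart. The mRNA of the named targets did not pass the threshold in either line. IKBKB (IKK2) had a limma adjusted p of 0.279 in MONO-MAC-6, and protein was not measured here.

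The ELR chemokines CXCL8 and CXCL1 showed the clearest differences. In MONO-MAC-6, CXCL8 was at 4.28, 4.54 and 4.41 TPM in DMSO samples 1, 2 and 3, and at 31.4, 42.0 and 36.8 TPM in A9 samples 1, 2 and 3. All A9 samples were far above all DMSO samples, and the DMSO samples lay close together. The means were 4.41 ± 0.131 TPM with DMSO and 36.8 ± 5.27 TPM with A9 (SD, n = 3 each), a ratio of 8.34. The difference in log2(TPM + 1), the scale of all fold changes given here, was 2.79 (SE 0.14). That scale understates the change of genes near or under 1 TPM. The single libraries were at most at 4.88 TPM among the 9 with DMSO and at least at 30.5 TPM among the 9 with A9. As parts of the samples they add no replicates.

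CXCL1, a ligand of the same receptor, was at 1.54, 0.885 and 1.10 TPM in the DMSO samples and at 13.6, 18.0 and 17.1 TPM in the A9 samples of MONO-MAC-6. Here too the groups were far apart, and in both genes A9 sample 1 was the lowest of the treated samples. The means were 1.17 ± 0.335 and 16.2 ± 2.35 TPM (SD, n = 3 each), a ratio of 13.8 and a log2 difference of 2.99 (SE 0.17). Among 12876 genes tested in that line, ordered from the highest log2 difference, CXCL1 came 5th and CXCL8 8th. Without DMSO sample 1 the log2 differences were 2.78 for CXCL8 and 3.11 for CXCL1. CXCL8 was the more abundant of the pair in every sample, while CXCL1 had the larger ratio.

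The closest relatives CXCL2 and CXCL3 differed in the same direction by smaller amounts. CXCL2 was at 1.53, 1.49 and 1.04 TPM with DMSO and at 3.25, 3.63 and 4.04 TPM with A9 in MONO-MAC-6, again without overlap. Its means were 1.36 ± 0.273 and 3.64 ± 0.395 TPM (SD, n = 3 each), a log2 difference of 0.98 (SE 0.14). CXCL3 was lower still, at 0.465, 0.870 and 0.614 TPM with DMSO and at 1.28, 1.53 and 1.32 TPM with A9. The log2 difference of CXCL3 was 0.53 (SE 0.13). Without DMSO sample 1 the values were 1.04 for CXCL2 and 0.45 for CXCL3. CXCL1, CXCL2 and CXCL3 share sequence, so reads may have been split between them: 14.4% of the 31-base words in the CXCL1 transcripts, 22.4% of those of CXCL2 and 9.54% of those of CXCL3 also occur in another gene, mostly in each other. CXCL8 shares 0% of its 2273 words with any other gene.

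CXCL16, the transmembrane chemokine, was at 0.685, 0.860 and 0.693 TPM with DMSO and at 1.96, 2.56 and 1.52 TPM with A9 in MONO-MAC-6. The groups did not overlap, and the A9 samples spread more widely than the DMSO samples. The log2 difference was 0.77 (SE 0.15), and 0.75 without DMSO sample 1. CXCL3 and CXCL16 reached the minimum of 1 TPM for testing only through their A9 samples, so a difference was built into their being tested.

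Of the CC members, only CCL5 was expressed enough to be tested. CCL5 (RANTES), which attracts T cells and monocytes, was the most abundant member in every sample of both lines. In MONO-MAC-6 it was at 73.8, 73.8 and 71.8 TPM with DMSO and at 83.0, 78.1 and 82.1 TPM with A9. The groups did not overlap, but the ratio of their means was only 1.11, from 73.1 ± 1.16 to 81.0 ± 2.62 TPM (SD, n = 3 each). The log2 difference of 0.15 (SE 0.073) was close to the median of all genes tested in that line, 0.16. With samples scaled by median ratios the median of all genes became -0.0092 and the CCL5 difference turned to -0.045, so no direction can be given for CCL5. Words shared with other genes made up 25.4% of the CCL5 transcripts and were spread over 3869 genes.

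CCL2, CCL3 and CCL4 were near 0 in MONO-MAC-6 and were not tested. CCL2, the main monocyte attractant of the class, was at 0.106, 0 and 0 TPM with DMSO and at 0.0321, 0.0711 and 0.0680 TPM with A9. CCL4 (MIP-1β) had 0.0516, 0 and 0 TPM with DMSO, and 0.0766, 0.0810 and 0.0411 TPM with A9. Both genes overlapped between groups. CCL3 (MIP-1α) had 0.0977, 0.0850 and 0.0332 TPM with DMSO, and 0.858, 0.0313 and 0.0875 TPM with A9. The high value of A9 sample 1 came from 1 library at 2.48 TPM, and the median A9 library was at 0.0461 TPM. CCL3 shares 20.9% of its words with its copy CCL3L1, and CCL4 shares 19.6% with CCL4L2, so these low values are uncertain also in their assignment.

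Of the 9 members, 6 were tested in MONO-MAC-6, and 3 of them, CXCL8, CXCL1 and CXCL2, were past an adjusted p of 0.05 in limma. In that line 3.36% of all genes tested were past it, 2.51% higher and 0.854% lower with A9. All 6 tested members had their A9 samples above their DMSO samples without overlap, as had 27.2% of all genes, whereas 10.7% lay below without overlap. This contrast chose the set, so nothing is read from these counts. The call of CXCL2 was lost when any A9 sample or DMSO sample 2 or 3 was left out, but not without DMSO sample 1. It was also lost with the sample number as a block in the fit, and at a threshold of 0.01. Without DMSO sample 1, 5 members were past the threshold, with CXCL3 and CXCL16 added, as were 24.8% of all genes tested.

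**Figure D1:**
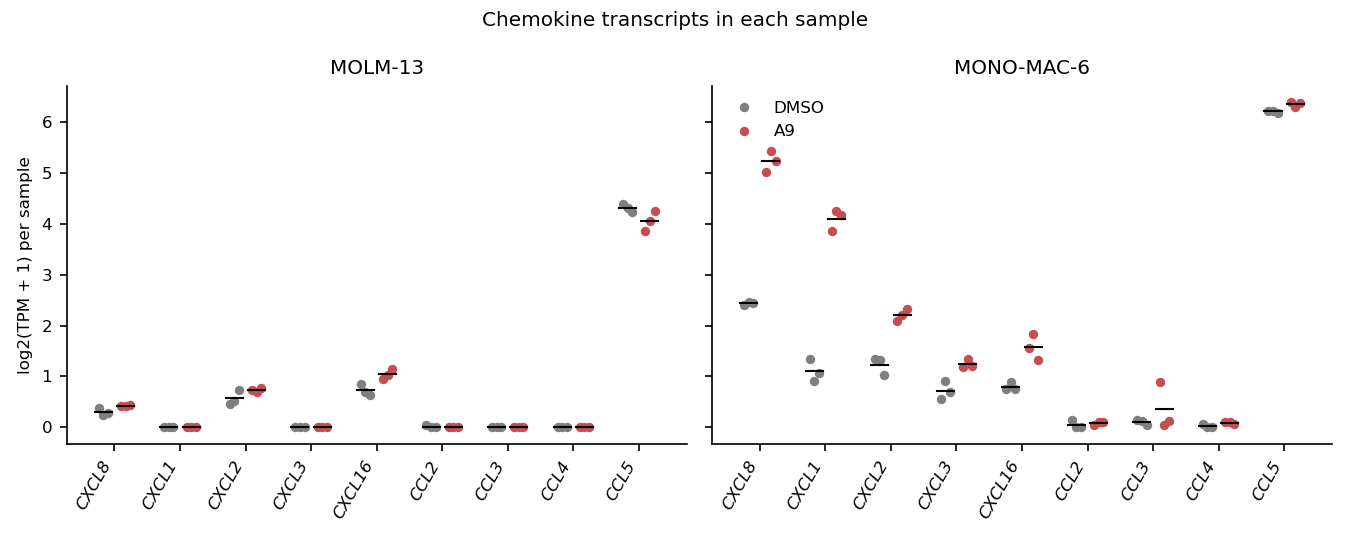
Levels of the 9 chemokine genes as log2(TPM + 1) on the vertical axis, by gene on the horizontal axis, in MOLM-13 and MONO-MAC-6. Points are samples (n = 3 per group, grey DMSO, red A9) and bars are means of the log2 values; in MONO-MAC-6 the red points of CXCL8 (31.4 to 42.0 TPM) lie far above the grey points (4.28 to 4.54 TPM), while CCL5 is high in all samples.

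The same genes were then read in MOLM-13, which had no part in choosing them and received the lower dose. CXCL8 was at 0.309, 0.189 and 0.216 TPM with DMSO and at 0.331, 0.335 and 0.349 TPM with A9. The A9 samples lay just above the DMSO samples, but every value was far below the lowest MONO-MAC-6 value, 4.28 TPM, and too low to be tested. CXCL1 and CXCL3 were listed at 0 in all 18 MOLM-13 libraries. CXCL2 was at 0.374, 0.441 and 0.653 TPM with DMSO and at 0.672, 0.623 and 0.712 TPM with A9, and the groups overlapped. CXCL16 was at 0.805, 0.621 and 0.543 TPM with DMSO and at 0.928, 1.04 and 1.21 TPM with A9, without overlap. The log2 difference of CXCL16 was 0.32 (SE 0.12), which limma did not call (adjusted p = 0.571, with an unadjusted p of 0.0377), and it entered the test only through its A9 samples. CCL5 was at 19.9, 18.8 and 17.8 TPM with DMSO and at 13.4, 15.6 and 18.1 TPM with A9. The CCL5 groups overlapped, and the log2 difference of -0.25 (SE 0.13) did not pass (limma adjusted p = 0.732, with an unadjusted p of 0.0852). CCL2, CCL3 and CCL4 did not exceed 0.0314 TPM in any sample.

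In MOLM-13 limma thus called 0 of the 2 members tested, and 1 had an unadjusted p under 0.05. The background was low, with 0.121% of 11602 genes called, 0.0862% higher and 0.0345% lower with A9. At an unadjusted p under 0.05 it was 7.89%, and 20.4% in MONO-MAC-6. Groups lay apart without overlap in 8.58% of all genes above and in 6.42% below DMSO. Line and dose differ together, the tables were deposited apart, and whether the effect differs between the lines was not tested.

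Within MONO-MAC-6 the makeup of the chemokine mRNA pool differed between the groups. The 9 members summed to 79.7 to 82.6 TPM in the DMSO samples and to 135 to 146 TPM in the A9 samples. CCL5 made up 89.4% to 90.1% of that sum with DMSO and 53.5% to 61.3% with A9. The share of CXCL8 was 5.18% to 5.53% with DMSO and 23.2% to 28.8% with A9, and that of CXCL1 was 1.07% to 1.87% and 10.0% to 12.4%. In MOLM-13 the sum was 19.2 to 21.4 TPM with DMSO and 15.4 to 20.3 TPM with A9, of which CCL5 made up 87.4% to 93.8%. From the highest to the lowest mean, the order in MONO-MAC-6 with DMSO was CCL5, CXCL8, CXCL2, CXCL1, CXCL16 and CXCL3. Of these, CXCL2 and CXCL1 overlapped in their samples, as did CXCL16 and CXCL3. With A9 the order was CCL5, CXCL8, CXCL1, CXCL2, CXCL16 and CXCL3, and no neighbours overlapped except CXCL16 and CXCL3, since 1.52 TPM in CXCL16 lay within the range of CXCL3.

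The transcripts of each gene showed which forms carried these levels. In MONO-MAC-6 the main coding form CXCL8-201 went from a mean of 4.01 ± 0.0621 TPM with DMSO to 33.4 ± 4.67 TPM with A9 (SD, n = 3 each), and it held 91.0% of the gene's TPM in both groups. The form CXCL8-203, which retains an intron, had 0.238 ± 0.130 TPM with DMSO and 2.33 ± 0.584 TPM with A9. Its share of the gene was 5.35 ± 2.78% and 6.28 ± 0.703%, a difference smaller than the spread of the DMSO samples. CXCL1-201, the coding form, was at 1.12 ± 0.325 and 14.1 ± 2.19 TPM. The non-coding CXCL1-202 was at 0.0507, 0 and 0.110 TPM with DMSO and at 1.73, 1.81 and 2.70 TPM with A9. Its share of CXCL1 was 0% to 10.0% with DMSO and 10.1% to 15.8% with A9. CXCL2-203, with a retained intron, held 8.43% to 19.05% of CXCL2 with DMSO and 25.7% to 28.0% with A9, so these shares did not overlap.

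CCL5 was split between a long and a short coding form. CCL5-202 was at 73.4, 68.9 and 66.5 TPM with DMSO and at 73.3, 70.7 and 70.2 TPM with A9, which overlapped. CCL5-203 was at 0.387, 4.98 and 5.32 TPM with DMSO and at 9.63, 7.37 and 11.95 TPM with A9, which did not. DMSO sample 1 was the lowest in the short form. In MOLM-13 the short form was at 1.58, 4.56 and 0.878 TPM with DMSO and at 3.11, 2.43 and 2.40 TPM with A9, with full overlap. Transcript values were not tested.

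**Figure D2:**
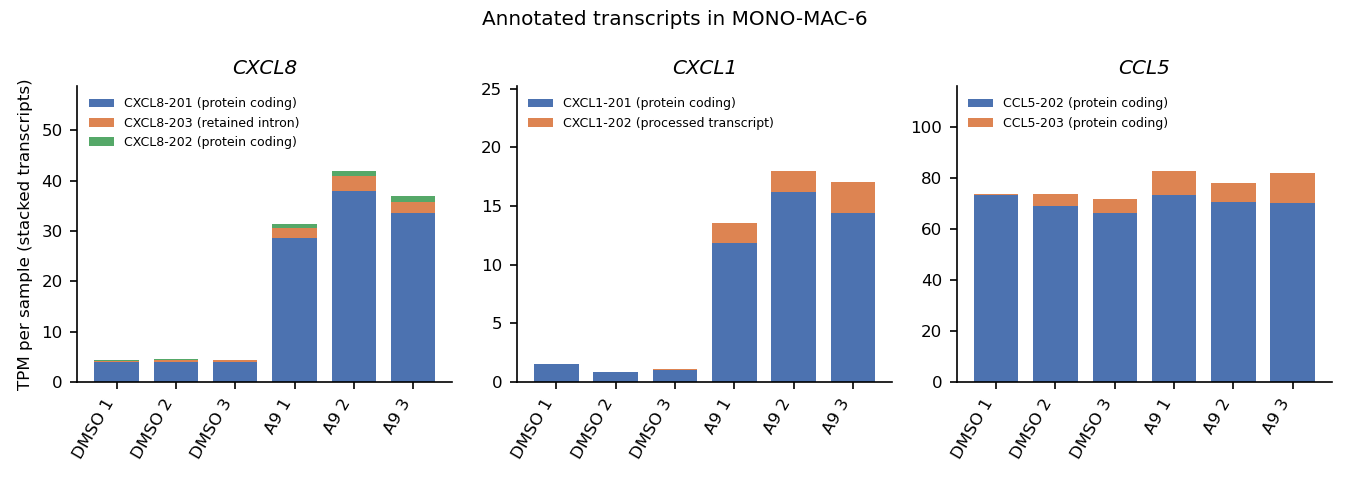
Stacked TPM of the annotated transcripts of CXCL8, CXCL1 and CCL5 on the vertical axis, for each MONO-MAC-6 sample on the horizontal axis (3 DMSO, 3 A9). CXCL8-201 makes up most of CXCL8 in all samples, and the upper part of the CCL5 bars, CCL5-203, is 0.387 to 5.32 TPM with DMSO and 7.37 to 11.95 TPM with A9.

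Genes with a pattern like that of CXCL8 were sought among 9289 genes whose mean over the 6 MONO-MAC-6 samples reached 5 TPM. The genes named had the smallest root mean square difference in log2(TPM + 1), centred on DMSO, over these samples. They were TREM2 (0.0905), a microglia and macrophage lipid receptor, OLR1 (0.13), a receptor for oxidised LDL, CXCL1 (0.20), the complement component C3 (0.24) and the myeloid kinase FGR (0.28). TREM2 was at 2.15, 1.96 and 2.27 TPM with DMSO and at 17.9, 21.5 and 19.4 TPM with A9. For CXCL1 they were CXCL8 (0.20), TREM2 (0.23), OLR1 (0.25), the metal transporter SLC11A1 (0.38) and CYP1B1 (0.42), a cytochrome P450. CXCL8 and CXCL1 were chosen on these same samples, so their nearness to each other is part of the choice. CXCL8, CXCL1, TREM2, OLR1 and SLC11A1 reached 5 TPM only in their A9 means.

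Most other chemokine genes did not reach the level for testing. Of 12 other CXC genes, 3 were expressed enough to be tested in MONO-MAC-6 and 0 in MOLM-13, and of the 25 other CC, C and CX3C genes on the list that the annotation holds, 3 were tested in each line. limma called 0 of them in either line. At an unadjusted p under 0.05 there were 2 CXC and 2 CC genes in MONO-MAC-6 and 0 in MOLM-13. The shares of all genes tested were 20.4% and 7.89%. CXCL10, an interferon-induced T cell attractant, was at 8.03 ± 0.258 TPM with DMSO and 5.07 ± 0.516 TPM with A9 in MONO-MAC-6 (SD, n = 3 each), opposite to CXCL8 (log2 difference -0.58, limma adjusted p = 0.0625). CXCL6, another ELR ligand of CXCR2, was at 1.49 ± 0.371 and 2.51 ± 0.353 TPM (log2 difference 0.50, limma adjusted p = 0.155). CCL20, the ligand of CCR6, was at 4.67 ± 1.01 and 8.82 ± 1.05 TPM (log2 difference 0.80, limma adjusted p = 0.0733). CCL23 went the other way, at 2.65 ± 0.545 and 1.39 ± 0.171 TPM without overlap (log2 difference -0.60, limma adjusted p = 0.0970), and was named after its values were seen. Without DMSO sample 1 CCL23 was called too, and limma adjusted p-values for the other genes were 0.00368 for CXCL10, 0.0203 for CXCL6 and 0.00376 for CCL20. In that fit 24.8% of all genes tested were called. CCL28 did not pass in either line, at 7.50 ± 2.03 and 8.31 ± 0.650 TPM in MONO-MAC-6 and at 8.03 ± 1.24 and 6.79 ± 0.597 TPM in MOLM-13.

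Of 23 receptor genes, 7 could be tested for MOLM-13 and 6 for MONO-MAC-6. limma called 0 in either line, with 3 and 2 at an unadjusted p under 0.05, as were 7.89% and 20.4% of all genes. Some receptors of the members, looked up for that reason and outside the naming rule, differed in level. CXCR2, through which CXCL8 and CXCL1 act, was at 1.58 to 6.07 TPM with DMSO and 4.29 to 5.61 TPM with A9 in MONO-MAC-6, while CXCR1, the other CXCL8 receptor, did not exceed 0.0182 TPM in that line. CXCR6, the receptor of CXCL16, was at most at 0.135 TPM in MONO-MAC-6. CXCR4 was the most abundant receptor, at 72.0 ± 13.8 and 95.5 ± 1.60 TPM in MONO-MAC-6 (limma adjusted p = 0.197). Without DMSO sample 1 it alone of the 6 was called (limma adjusted p = 0.00495), as were 24.8% of all genes tested. CCR2, the receptor of CCL2, was at 8.16 ± 1.65 TPM with DMSO and 20.8 ± 3.35 TPM with A9 in MOLM-13 (log2 difference 1.25, limma adjusted p = 0.0864). There CCR2 passed with median-ratio scaling (limma adjusted p = 0.0155), but in 0 of the 6 fits that left out 1 sample (limma adjusted p = 0.106 to 0.499).

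Among enzymes that cut or shed chemokines, limma called 2 of the 12 tested in MONO-MAC-6, where 3.36% of all genes were called. It called 0 of the 11 tested in MOLM-13, where 4 had an unadjusted p under 0.05, as had 7.89% of all genes. In MONO-MAC-6, 6 of the 12 had such a p, as had 20.4% of all genes. MMP2, a gelatinase, rose from 13.4 ± 4.09 to 47.5 ± 4.69 TPM in MONO-MAC-6 (log2 difference 1.79, limma adjusted p = 0.0142). CTSG (cathepsin G), a granule protease that processes chemokines, fell from 591 ± 89.2 to 229 ± 21.1 TPM (log2 difference -1.36, limma adjusted p = 0.00564). The granule proteases ELANE, at 2343 ± 326 and 2835 ± 62.9 TPM, and PRTN3, at 1226 ± 192 and 1628 ± 80.02 TPM, did not pass. Both did without DMSO sample 1 (limma adjusted p = 0.000195 and 0.000604). In that fit 8 of the 12 enzymes were called, 5 of them higher, as were 24.8% of all genes tested. With median-ratio scaling the log2 differences of ELANE and PRTN3 were 0.091 and 0.23, and neither passed (limma adjusted p = 0.818 and 0.564).

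The regulators that act before these promoters showed few calls. Of 15 NF-kB subunits and inhibitors, all were tested in both lines and limma called 0. At an unadjusted p under 0.05 there were 4 in MONO-MAC-6 and 2 in MOLM-13, as were 20.4% and 7.89% of all genes. The medians that follow are those of the 15 genes. Their median log2 difference was -0.087 in MOLM-13, where that of all genes was -0.046, and 0.44 in MONO-MAC-6, where that of all genes was 0.16. TNIP1, an inhibitor of NF-kB signalling, was at 33.6 ± 4.55 and 49.5 ± 2.36 TPM in MONO-MAC-6 (limma adjusted p = 0.0709). Without DMSO sample 1, 5 of the 15 passed in MONO-MAC-6, all higher: NFKBIE, NFKBIZ, REL, TNFAIP3 and TNIP1; the share of all genes was 24.8% there. Of 24 other inflammatory NF-kB targets, 11 were tested in MOLM-13 with 0 called and 15 in MONO-MAC-6 with 1 called. That gene, PLAUR, the urokinase receptor, rose from 60.9 ± 1.54 to 94.3 ± 4.33 TPM (log2 difference 0.62, limma adjusted p = 0.0115). With median-ratio scaling PLAUR had an adjusted p of 0.117. SOD2, at 51.8 ± 6.24 and 65.0 ± 2.57 TPM, and ICAM1, at 18.4 ± 4.72 and 19.2 ± 0.802 TPM, did not pass. The median of the list in MONO-MAC-6 was 0.13. With DMSO sample 1 left out, 5 of the 15 were called: CD83, IL1B, PLAUR, SERPINB2 and SOD2. Of these, 4 were higher with A9.

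Of 25 sensors and adaptors upstream of chemokine genes, limma called 1 of 19 tested in MONO-MAC-6 and 0 of 15 in MOLM-13. The shares of all genes tested that it called were 3.36% and 0.121%. CD14, the co-receptor for lipopolysaccharide and a monocyte marker, rose in MONO-MAC-6 from 3.14 ± 0.529 to 13.04 ± 0.552 TPM (log2 difference 1.77, limma adjusted p = 0.00256), and it passed in all 6 fits that left out 1 sample. Leaving out DMSO sample 1 gave 7 of the 19: CD14, IL1RAP, IRAK1, IRAK4, RIPK2, TLR2 and TNFRSF1B. Of these, 6 were higher with A9. In that fit 24.8% of all genes tested were called. Of 17 AP-1 and C/EBP factors, 12 were tested in MOLM-13 with 0 called and 14 in MONO-MAC-6 with 1 called. FOS, a subunit of AP-1, rose from 28.5 ± 5.87 to 52.6 ± 2.04 TPM (log2 difference 0.88, limma adjusted p = 0.0392). CEBPA was at 334 ± 19.4 and 382 ± 7.52 TPM and did not pass. In the fit without DMSO sample 1, 6 of the 14 were called: BATF3, CEBPA, CEBPB, FOS, JUN and JUNB. Of these, 5 were higher with A9. Of 14 proteins that bind or regulate AU-rich mRNA, 13 were tested in MOLM-13 with 0 called and 14 in MONO-MAC-6 with 1 called. DUSP1, a phosphatase of the p38 and JNK kinases, rose from 0.793 ± 0.119 to 2.19 ± 0.271 TPM (log2 difference 0.83, limma adjusted p = 0.0213), and it reached the minimum for testing only through its A9 samples. The count was 5 of 14 without DMSO sample 1: DUSP1, MAPKAPK2, ZFP36, ZFP36L1 and ZFP36L2. Of these, 4 were higher with A9. In MOLM-13, 1 sensor, 2 AP-1 or C/EBP factors, 3 NF-kB targets and 1 AU-rich binding gene had an unadjusted p under 0.05, as had 7.89% of all genes. In MONO-MAC-6 the counts were 4 sensors, 5 AP-1 or C/EBP factors, 6 NF-kB targets and 4 AU-rich binding genes. There 20.4% of all genes had such a p. The calls of FOS and DUSP1 were lost when any sample other than DMSO sample 1 was left out, and those of MMP2 and PLAUR without any A9 sample or DMSO sample 2. CTSG lost its call without A9 sample 2 or 3.

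**Figure D3:**
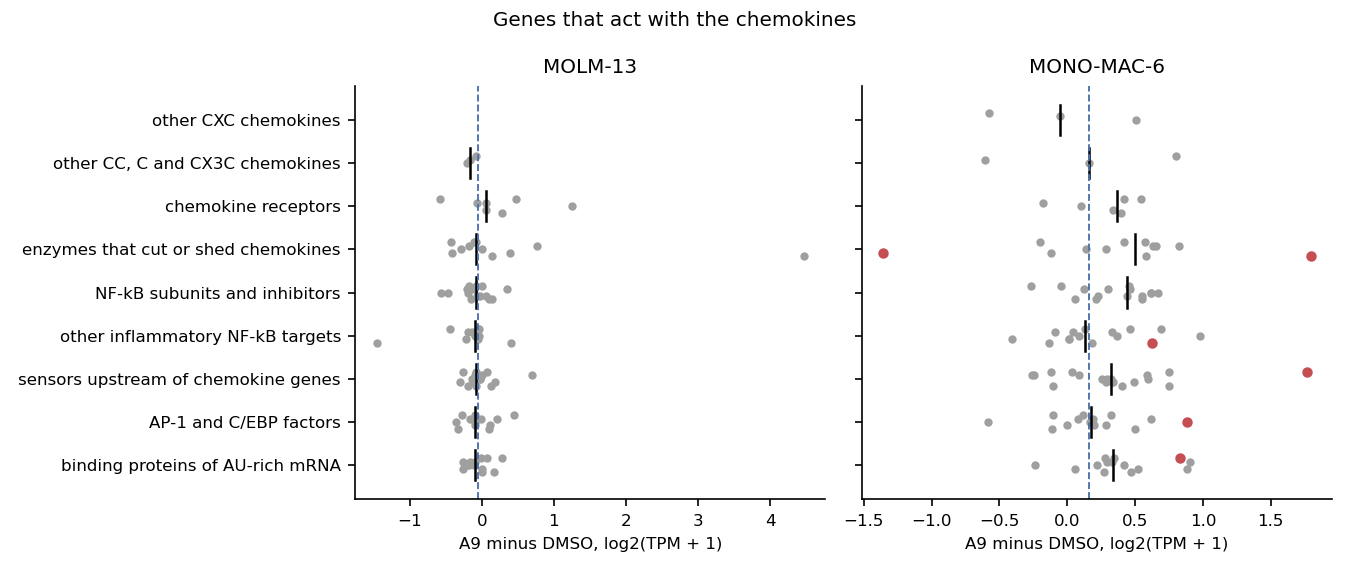
Log2 difference (A9 minus DMSO, log2(TPM + 1)) on the horizontal axis for the tested genes of 9 lists, 1 list per row, in MOLM-13 and MONO-MAC-6. Points are genes, red past an adjusted p of 0.05; black bars are list medians and the dashed line is the median of all genes (-0.046 and 0.16); in MOLM-13 no point is red.

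The member differences were followed through the alternative ways of processing that kept the gene in the test. CXCL16 in MOLM-13 gave no value without A9 sample 3 or with protein-coding transcripts only, nor did CXCL3 in MONO-MAC-6 with the latter. In MONO-MAC-6, CXCL8 stayed between 2.62 and 3.02 and CXCL1 between 2.83 and 3.70 on the log2 scale, the latter highest with a pseudocount of 0.1. CXCL2 ran from 0.72 to 1.37, CXCL3 from 0.44 to 1.01 and CXCL16 from 0.65 to 1.30. In MOLM-13, CXCL16 stayed between 0.27 and 0.62 and CCL5 between -0.35 and -0.15. The limma adjusted p-values of these genes ran from 0.0359 to 0.996 for CXCL16 and from 0.00493 to 0.9997 for CCL5. They were lowest with libraries averaged by second number. That setting pools libraries of different samples, which hides the spread between samples.

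**Figure D4:**
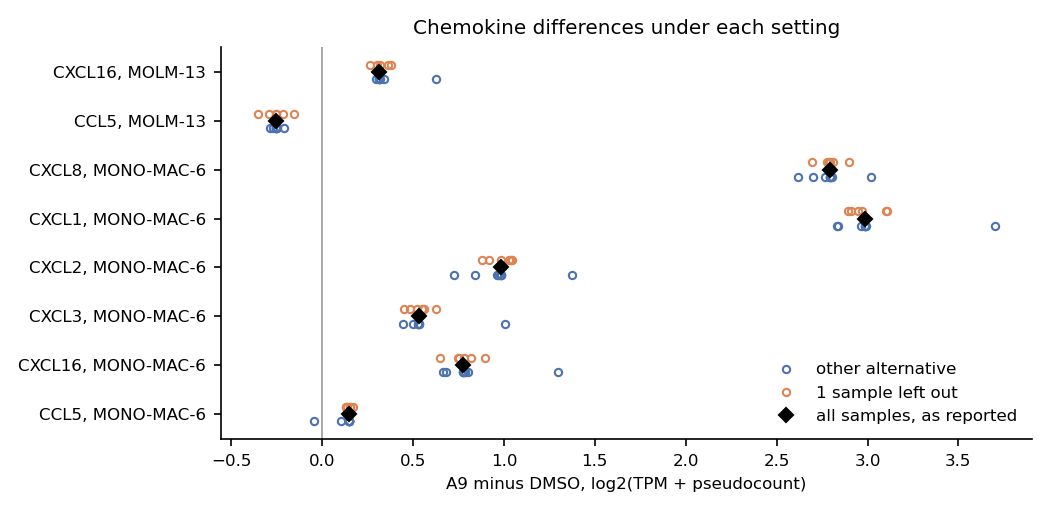
Log2 difference between A9 and DMSO on the horizontal axis for the tested members, 1 per row, with all samples (black), with 1 sample left out (orange) and under the other alternatives (blue). CXCL8 (2.62 to 3.02) and CXCL1 (2.83 to 3.70) stay far from 0 in every fit, and CCL5 in MONO-MAC-6 crosses 0 under 1 alternative.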

How the data were processed

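Bulk poly(A) RNA was sequenced in 36 libraries. The authors deposited TPM per Ensembl transcript and library, 1 table per line; the submitters' processing notes name kallisto, limma and GRCh38, with roles and versions not given in the sources used here. TPM depend on the other transcripts of a library, and depth and counting error cannot be had from them. TPM were summed to genes through GENCODE 29, which matched 78.5% of 207175 transcripts, holding 89.9% to 91.4% of TPM; the rest were not analysed here. Libraries sharing a first number were averaged, because the design text states 3 per condition. Each line was fitted apart on log2(TPM + 1) by limma 3.58.1 (R 4.3.3; eBayes with a trended, robust prior), keeping genes whose mean reached 1 TPM with DMSO or with A9. Two-sided p-values received Benjamini-Hochberg adjustment across every tested gene of the line, and 0.05 was the threshold. With 3 against 3 samples the smallest p of an exact permutation test is 0.1. The fit was also run on simulated data with independent noise around each gene's mean. Those data hold no outlying sample such as DMSO sample 1 of MONO-MAC-6, so they do not vouch for the fit there.

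The members, the 9 lists (173 entries) and the tests were chosen with earlier results of these data known. All members were named; from each list, up to 4 genes that passed per line, by size of change, and up to 2 that did not, by mean level. Others named were chosen after their values were seen. As alternatives served each library as a sample, averages by second number, a replicate block, a threshold of 0.01, a pseudocount of 0.1, no filter, median-ratio scaling, removal of the trend on transcript length, protein-coding transcripts only, and leaving out each sample. Shared words are 31-base stretches of GENCODE transcripts. Figures were made with matplotlib 3.10.9.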

Additional observations from a re-analysis of the deposited data

Results flagged for a closer look

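For 4 genes of the lists, all A9 samples of MOLM-13 lay below all DMSO samples, and those of MONO-MAC-6 above them. None is a member. Among all genes tested, 6.42% lay below in this way in MOLM-13 and 27.2% above in MONO-MAC-6. The share of all genes with both was not computed, so nothing is read from the count. TNF, a cytokine that induces chemokines, had a log2 difference of -1.46 in the first line and 0.98 in the second, which are 2.43 apart, and its A9 sample 2 in MONO-MAC-6, at 0.191 TPM, was barely above the highest DMSO sample, at 0.181 TPM; there TNF reached the minimum of 1 TPM for testing only through its A9 samples. TNFAIP3, which encodes the NF-kB inhibitor A20, had -0.57 and 0.67 (1.24 apart). CD83, a marker of activated antigen-presenting cells, had -0.43 and 0.46 (0.89 apart). PLAUR had -0.098 and 0.62 (0.72 apart). The difference between the lines was not tested, the doses differed, and of these 8 comparisons only PLAUR in MONO-MAC-6 passed the limma threshold.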

How the results depend on the processing

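The choice of what counts as a sample moved the counts most. In MOLM-13, 14 genes were called, against 1741 with each library as its own sample and 5439 with libraries averaged by second number, a setting that also called 2 members (CCL5 and CXCL16) where 0 had been called. In MONO-MAC-6, 433 genes and 3 members were called, against 5586 genes and 6 members with each library its own sample and 8705 genes and 6 members by second number. Libraries sharing a first number varied less (median SD 0.089 and 0.097 in log2, MOLM-13 and MONO-MAC-6) than those sharing a second number (0.20 and 0.24). With the first number as the sample, averaging by second number pools libraries of different samples, which hides the spread between samples. Taking each library alone counts parts of a sample as replicates. The calls of these settings are therefore not read as results. Counts for MOLM-13 and MONO-MAC-6 were 181 and 1176 with the length trend removed, 4 and 254 without a filter, and 4 and 109 at a threshold of 0.01. Median-ratio scaling gave 46 genes in MOLM-13. With a replicate block, limma called 87 genes in MOLM-13, and 94 genes and 2 members in MONO-MAC-6. The numbers were not taken to pair the samples, because same-numbered samples deviated together with correlations of 0.36, -0.077 and 0.68 in MOLM-13 and -0.027, 0.088 and -0.091 in MONO-MAC-6; not every sample correlated best with its own number. Leaving out 1 sample gave 2 to 8 genes in MOLM-13, and 59 to 3205 genes and 2 to 5 members in MONO-MAC-6, the highest without DMSO sample 1. Of the calls in MONO-MAC-6, 74.6% were higher with A9, against 58.1% with median-ratio scaling and 53.6% with the length trend removed. Among 117 fold changes of members under alternatives, 97 kept their direction and side of the threshold, 12 became calls, 7 lost one (all CXCL2) and 1 reversed: CCL5 in MONO-MAC-6, at -0.045 with median-ratio scaling. The cause was not tested. TPM give no depth, so differences among members under 1 TPM cannot be weighed against counting error.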

Other observations

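In MOLM-13, PRTN3 (proteinase 3, a granule protease that cuts chemokines) was at 3.55, 12.96 and 57.3 TPM with DMSO and at 323, 321 and 388 TPM with A9; it was singled out after its values were seen. The groups did not overlap, the DMSO samples spread widely, and the log2 difference of 4.47 did not pass (limma adjusted p = 0.156). CXCR3, a receptor of CXCL10, was at 1.89, 1.91 and 1.84 TPM with DMSO and at 0.977, 0.838 and 0.966 TPM with A9 in MOLM-13 (limma adjusted p = 0.134), also singled out after its values were seen.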
